A study of Mus musculus with 24 samples.

Results

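Fosb (uc009flk.1), Btg2 (uc007cre.1) and Klf4 (uc008sxk.2) are 3 immediate early regulators, and their 3 rows were taken by transcript identifier from the 63758 transcripts of the count table, over all 24 samples. All 3 were among the 8940 transcripts that passed the filter on low counts. The samples were left ventricles of male C57BL/6J mice after a sham cardiac operation, with 1 sample per mouse and 8 mice at each of 3 times post surgery, and no mice were pooled. The question here was in which direction each of the 3 genes moved, and how far the mice of one time point stood apart, above all at 45 min.

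All mice, including those at 0 min, received pentobarbital anesthesia, buprenorphine, intubation, a left thoracotomy and a suture passed around the left anterior descending coronary artery, which was never tied. The groups differ in how long the operation or recovery lasted: the 0 min mice had the thread withdrawn directly, the 45 min mice had it in place for that time, and the 24 h mice recovered with a closed chest. Age was given in the methods as 1 range for all groups. The 0 min group is therefore an operated reference, and no unoperated mice were compared. The label gives the tissue as heart and the strain as C57BL/6.

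Immediate early genes are transcribed within minutes of a stimulus from factors already present in the cell, so that no new protein is needed. Most of them shut off again quickly because their RNA is unstable and their products feed back on the signal. Fosb encodes a FOS family subunit of the AP-1 transcription factor, which pairs with a JUN protein. Btg2 encodes a protein of the antiproliferative BTG/TOB family that recruits the CCR4-NOT deadenylase to mRNA. Klf4 encodes a zinc finger transcription factor that is known in endothelium for restraining inflammatory gene expression.

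All 3 genes lie on the minus strand in GRCm38, the assembly that mm10 names. In the GENCODE M21 annotation, Fosb spans chr7:19302696-19310051 with 4 exons in its first listed transcript, Btg2 spans chr1:134075170-134079120 with 2 exons, and Klf4 spans chr4:55527143-55532466 with 5 exons. No other annotated gene overlaps any of them on either strand. The promoter windows below, from RefSeq on GRCm38.p6, show where the 3 genes share and do not share a cAMP response element (CRE), the site through which CREB family factors are known to drive early genes. Each runs from 250 to 51 bases before the RefSeq start, 5′ to 3′ on the gene's strand, at chr7:19310096-19310295 for Fosb, chr1:134079206-134079405 for Btg2 and chr4:55532526-55532725 for Klf4. Capitals mark the CRE half-site TGACG on either strand and the whole CRE.
Fosb: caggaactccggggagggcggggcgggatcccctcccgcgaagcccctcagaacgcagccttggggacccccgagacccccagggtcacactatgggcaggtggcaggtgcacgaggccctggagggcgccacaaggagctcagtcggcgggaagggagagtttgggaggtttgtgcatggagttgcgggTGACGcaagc
Btg2: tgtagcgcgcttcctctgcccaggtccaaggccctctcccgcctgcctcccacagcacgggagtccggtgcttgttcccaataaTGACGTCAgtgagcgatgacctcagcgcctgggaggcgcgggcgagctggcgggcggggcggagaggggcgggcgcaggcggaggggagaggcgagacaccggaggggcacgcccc
Klf4: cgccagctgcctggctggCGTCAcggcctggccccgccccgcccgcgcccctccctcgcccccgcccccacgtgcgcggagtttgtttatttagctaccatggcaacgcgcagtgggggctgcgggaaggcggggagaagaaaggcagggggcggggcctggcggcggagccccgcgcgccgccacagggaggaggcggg

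Btg2 carried the whole CRE TGACGTCA, from 166 to 159 bases before its start, which holds the half-site on both strands. Of 32851 windows of the same length in the RefSeq table, 0.828% held the whole CRE on either strand. Fosb carried 1 half-site, from 60 to 56 bases before its start, and Klf4 carried 1 on the opposite strand, from 232 to 228 bases before its start. The half-site alone was in 12.7% of windows. The GC box GGGCGG was in all 3 windows and in 24.6% of the table. The EGR site GCGNGGGCG was in the Btg2 and Klf4 windows and in 3.04% of the table. The AP-1 site TGANTCA (5.57% of windows), the STAT site TTCNNNGAA (5.76%), the TATA box TATAAA (9.14%) and the CArG box (1.16%) were not in these letters of any of the 3. All motifs were searched on both strands, and the matches are letters only, with no measure of binding here.

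Total counts per sample ranged from 9887957 to 14091629 and the number of transcripts detected from 12972 to 18865. Replicates 6, 7 and 8 at 45 min had the fewest transcripts detected, between 12972 and 14353. The differences of the 3 genes at 45 min against 0 min are therefore also given without these 3 mice. Replicate 1 at 45 min had 35.2% of its counts in a single transcript, against 9.67% to 20.9% in the other libraries. Cardiomyocyte markers (8 transcripts of Actc1, Actn2, Mybpc3, Tnni3k, Hrc, Lrrc10 and Hopx) summed to between 6480 and 29100 CPM (counts set to a fixed library total) in every sample. None of these transcripts was at 0 in all samples of a time point. Levels are given as CPM with the TMM library scaling, which adjusts for differences in depth and composition but not in transcript length. Levels of different genes are therefore not ranked. In whole ventricle, a change in the number of cells that express a gene and a change in RNA per cell cannot be told apart.

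At 45 min against 0 min, Fosb rose 19.9-fold, while the differences of Btg2 (1.45-fold higher) and Klf4 (0.574 of the 0 min level) did not pass the test. Fosb was 1 of the 3 genes called by edgeR's quasi-likelihood test at an adjusted p of 0.05, against a background of 0.727% of all 8940 transcripts called in that comparison. It ranked 2 by p among them.

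Fosb at 0 min had between 1.19 and 6.77 CPM with a median of 2.13, from 13 to 78 reads per mouse. At 45 min it had between 7.47 and 124 CPM with a median of 48.1, from 105 to 1192 reads. At 24 h it had between 0.519 and 2.16 CPM with a median of 1.19, from 6 to 37 reads. Every mouse at 45 min lay above every mouse at 0 min, although mouse 2 at 45 min (7.47) came close to mouse 6 at 0 min (6.77). Mean levels were 2.58 ± 1.80 CPM for the 0 min group, 51.8 ± 38.2 for the 45 min group and 1.26 ± 0.586 for the 24 h group (SD, 8 mice in each). The log2 fold change at 45 min was 4.31 with a standard error (SE) of 0.47 (edgeR, adjusted p = 5.98e-06). Samples that do not overlap and are higher at 45 min were seen for 0.235% of all transcripts tested. Without mice 6, 7 and 8 at 45 min the log2 fold change was 3.88 (adjusted p = 6.37e-05).

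Btg2 at 0 min had between 54.9 and 152 CPM with a median of 76.3, and at 45 min between 61.4 and 234 with a median of 137. The groups overlapped: 6 of 8 mice at 45 min lay above the 0 min median, and 1 lay above the highest 0 min mouse. The mean was 86.1 ± 32.0 CPM at 0 min and 125 ± 57.0 at 45 min (SD, n = 8 each). The log2 fold change of 0.54 (SE 0.25) did not pass the test in edgeR (adjusted p = 0.808), DESeq2 (adjusted p = 0.608) or limma-voom (adjusted p = 0.879). The levels at 45 min fell into a low set of mice 1, 2 and 4, at 61.4 to 79.9 CPM, and a high set of the other 5 mice, at 132 to 234 CPM. Without mice 6, 7 and 8, which all belong to the high set, the log2 fold change was 0.17 (adjusted p = 0.809).

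Klf4 at 0 min had between 32.4 and 84.4 CPM with a median of 68.2, and at 45 min between 20.4 and 52.6 with a median of 34.3. All 8 mice at 45 min lay below the 0 min median, and 4 of them lay below the lowest 0 min mouse. The mean was 62.1 ± 17.3 CPM at 0 min and 35.6 ± 11.2 at 45 min (SD, n = 8 each). The call for this difference depended on the tool. The log2 fold change was -0.80 (SE 0.21, adjusted p = 0.0995) in edgeR and -0.78 (adjusted p = 0.0451) in DESeq2, which called 0.906% of the transcripts it tested. In limma-voom, which called 0.626%, the adjusted p was 0.125. The edgeR call also turned when mouse 1 at 0 min (adjusted p = 0.0376) or mouse 7 at 45 min (adjusted p = 0.0488) was left out, and without mice 6, 7 and 8 at 45 min the log2 fold change was -0.84 (adjusted p = 0.13).

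**Figure D1:**
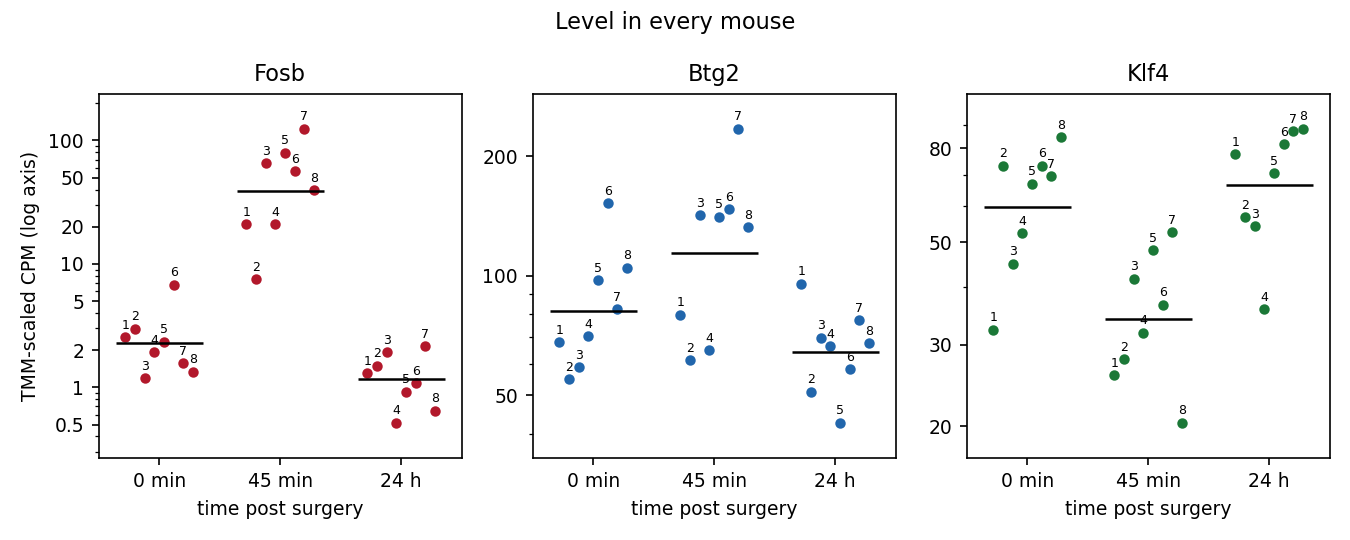
TMM-scaled CPM of Fosb, Btg2 and Klf4 on log axes (a separate scale for each gene) in the 3 groups of mice, with 1 point per mouse, labelled by its replicate number, and a bar at the mean of the log2 values. The 8 Fosb values at 45 min lie above all those of the other times, Btg2 at 45 min splits into 3 low and 5 high mice, and 4 Klf4 values at 45 min lie below the lowest at 0 min.

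At 24 h the mean of Fosb was 1.26 CPM against 2.58 at 0 min, that of Btg2 66.1 against 86.1, and that of Klf4 69.0 against 62.1. Against 0 min, none of the 3 was called by edgeR at 24 h, where 7.68% of all transcripts were called (4.44% higher and 3.24% lower). None was called by DESeq2 or limma-voom, which called 6.47% and 7.75% of theirs. Fosb had an unadjusted p of 0.0413 in edgeR, with a log2 fold change of -1.02 (SE 0.48, adjusted p = 0.234), and 4 of 8 mice lay below the lowest 0 min mouse. Btg2 differed by -0.38 (SE 0.25, adjusted p = 0.447) and Klf4 by 0.15 (SE 0.21, adjusted p = 0.776) on the log2 scale. These comparisons share their 0 min samples with those at 45 min.

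Between 45 min and 24 h all 3 genes passed the edgeR test, where 9.09% of all transcripts were called. Fosb fell by 5.33 on the log2 scale (SE 0.50, adjusted p = 8.36e-08), and no mouse at 24 h reached any mouse at 45 min, a separation downward that 0.716% of all transcripts showed. Btg2 at 24 h had between 42.7 and 95.5 CPM with a median of 67.1 and a mean of 66.1 ± 16.2 (SD, n = 8), and 3 of 8 mice lay below the lowest at 45 min. It fell by 0.92 on the log2 scale (SE 0.25, adjusted p = 0.0191). This Btg2 call was lost without mouse 7 at 45 min (log2 fold change -0.75, adjusted p = 0.0589) and without mice 6, 7 and 8 (-0.56, adjusted p = 0.214). Klf4 at 24 h had between 35.9 and 88.1 CPM with a median of 74.2 and a mean of 69.0 ± 18.5 (SD, n = 8). It rose by 0.95 on the log2 scale from 45 min (SE 0.21, adjusted p = 0.00494), with 7 of 8 mice above the highest at 45 min, and by 0.97 without mice 6, 7 and 8 (adjusted p = 0.0108).

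Tested over all 3 times together, Fosb (adjusted p = 4.09e-09), Klf4 (adjusted p = 0.00823) and Btg2 (adjusted p = 0.0423) were called by edgeR, along with 8.91% of all transcripts. The Btg2 call was the least stable: the adjusted p was 0.0164 in DESeq2 (8.13% of transcripts called) and 0.079 in limma-voom (8.59%), and it was over 0.05 when 1 of 15 mice, taken in turn, was left out. Without mice 6, 7 and 8 at 45 min it was 0.262, the highest of the alternatives, against 0.0158 for Klf4.

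Marker lists of cell types were measured beside these values. They hold only genes with a symbol in the study's table of transcripts that changed over time in these samples. Their counts of calls are therefore not independent evidence of a change in the makeup of the tissue. At 45 min against 0 min, 1 of 6 endothelial transcripts (Clec14a, S1pr1, Fli1, Esm1, Pcdh12 and Selp) was called, and their summed level ranged from 120 to 167 CPM at 0 min and from 128 to 185 at 45 min. None of the 8 cardiomyocyte, 4 neutrophil, 5 monocyte, 7 macrophage, 2 platelet, 4 fibroblast or 5 mesothelial or epithelial transcripts was called in that comparison. At 24 h, 4 of the 8 cardiomyocyte transcripts were called against each earlier time, with a summed level of 6480 to 11400 CPM against 16000 to 23600 at 0 min and 17200 to 29100 at 45 min. All 4 neutrophil transcripts were called against 0 min, with 7.38 to 51.7 CPM at 24 h and 1.36 to 7.14 at 0 min. Of the 7 macrophage transcripts 5 were called against 0 min, with 112 to 246 CPM against 60.3 to 93.9. Also called against 0 min were 4 of the 5 monocyte and 4 of the 5 mesothelial or epithelial transcripts. So were 3 of the 6 endothelial, 2 of the 4 fibroblast and 1 of the 2 platelet transcripts. All these calls were counted in either direction. The summed endothelial level had a median of 149 CPM at 0 min and 155 at 24 h. Of all transcripts, 0.727% were called at 45 min against 0 min. At 24 h, 7.68% were called against 0 min and 9.09% against 45 min. No marker transcript was at 0 in all samples. The part of these shifts in the 24 h values of the 3 genes was not tested.

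Within a mouse, the levels of the 3 genes stood in different relation to each other at 45 min, and these differences in log2(CPM + 0.5) are described here with no test. Fosb minus Klf4 went from -4.44 ± 0.75 at 0 min to 0.18 ± 1.02 at 45 min and -5.32 ± 0.56 at 24 h (SD, n = 8 each). Btg2 minus Klf4 went from 0.45 ± 0.47 to 1.73 ± 0.54 and to -0.05 ± 0.52. For the pair of Btg2 and Klf4, the lowest mouse at 45 min (1.01) lay below the highest at 0 min (1.06), so the groups overlapped. Fosb minus Btg2 went from -4.89 ± 0.59 to -1.55 ± 0.69 and to -5.28 ± 0.53. It did not overlap between 45 min and the other times, and neither did Fosb alone. Pairs of other genes were not examined, so how common such separations are is not known. Both genes of a pair were read from the same library, so its scaling largely cancels for Btg2 and Klf4, but not for Fosb at 0 min and 24 h, where its level was nearer to the pseudocount of 0.5 CPM.

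**Figure D2:**
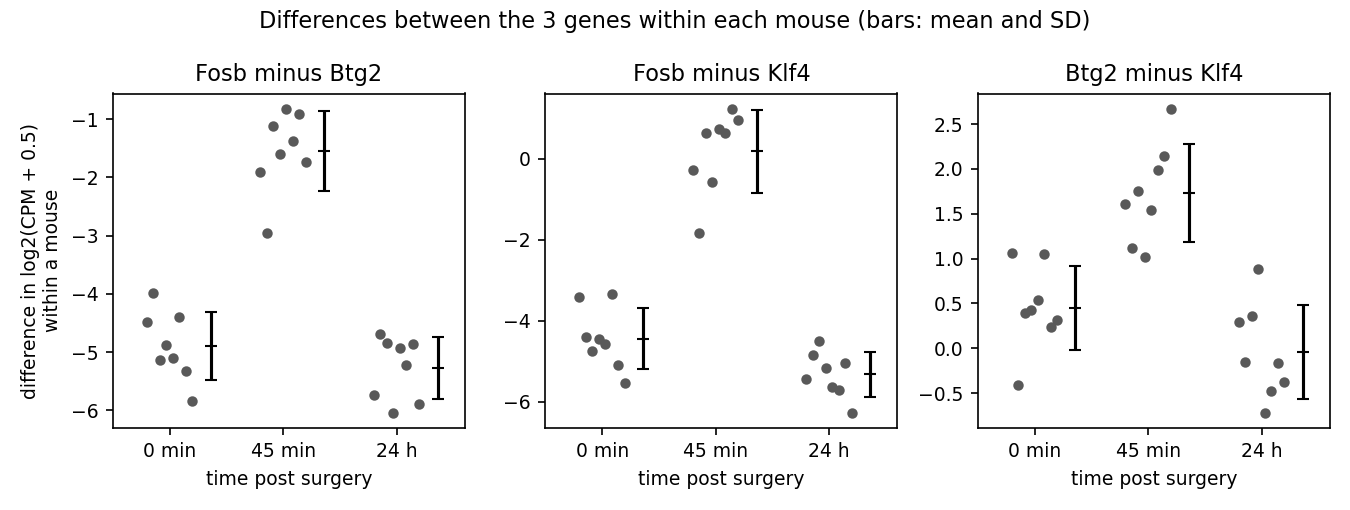
Differences in log2(CPM + 0.5) between 2 of the 3 genes within each mouse of the 3 groups, with 1 point per mouse and bars for the mean and SD of 8 mice. Each pair stands highest at 45 min, from -1.55 on average for Fosb minus Btg2 to 1.73 for Btg2 minus Klf4.

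The spread between mice at 45 min on the log2 scale exceeded that of 99.2% of all transcripts for Fosb, 79.1% for Btg2 and 47.9% for Klf4. The highest Fosb mouse at 45 min had 16.6 times the level of the lowest, against 5.67 times at 0 min and 4.17 times at 24 h. The coefficient of variation (CV) of Fosb was 73.7% at 45 min, of which counting alone would give 4.31%. At 0 min the CV was 69.7% with a counting part of 18.5%, and at 24 h 46.6% with a counting part of 24.2%. The relative spread of Fosb on the linear scale was thus close at 0 and 45 min, while on the log2 scale it was larger at 45 min. Mouse 6 alone stood high at 0 min (6.77 CPM, with the next at 2.99), and mouse 2 alone stood lowest at 45 min (7.47 CPM, with the next at 21.0).

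On the scale of log2(CPM + 0.5), the Fosb SD was 0.67 in the 0 min mice, 1.28 in the 45 min mice and 0.491 in the 24 h mice, and the first and last were higher than those of 92.5% and 75.5% of transcripts. The median SD over all transcripts was 0.382, 0.474 and 0.366, so the typical transcript also spread more at 45 min. For Btg2 the SD was 0.485, 0.671 and 0.355, higher than 71.3%, 79.1% and 47.3% of transcripts. For Klf4 the SD was 0.456, 0.462 and 0.442, higher than 65.9%, 47.9% and 66.8% of transcripts. Its highest mouse had 2.61, 2.58 and 2.46 times the level of its lowest.

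**Figure D3:**
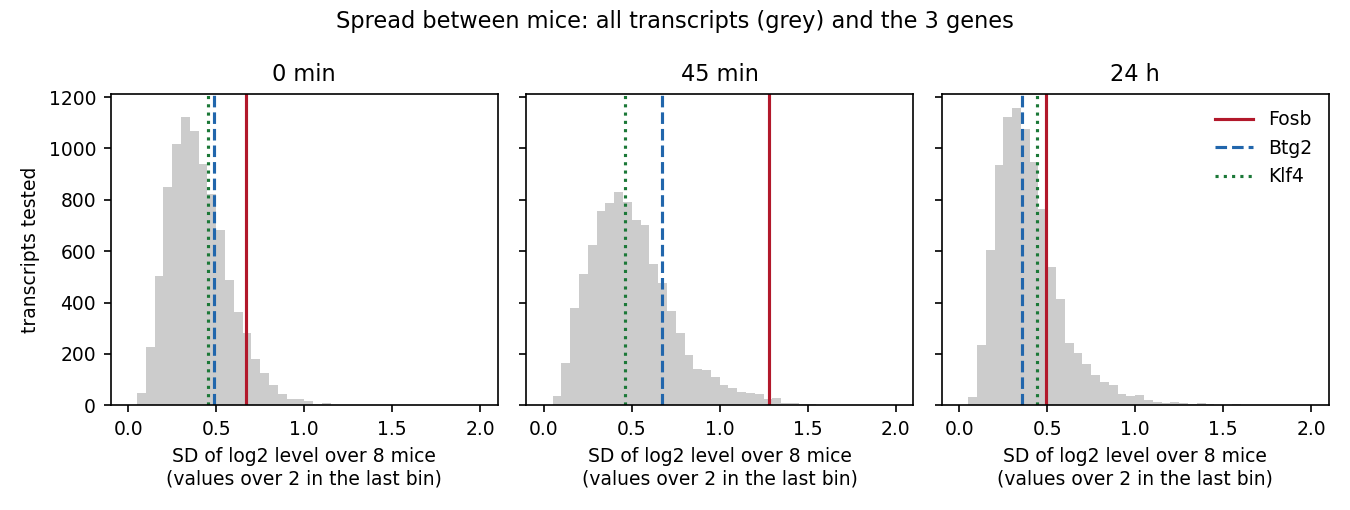
Histograms of the SD of log2(CPM + 0.5) over the 8 mice of each time point, for all 8940 transcripts tested (grey), with lines for Fosb, Btg2 and Klf4. The Fosb line lies at 1.28 at 45 min, beyond 99.2% of the transcripts, and the Klf4 line stays between 0.442 and 0.462 at all times.

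The spread was tested with limma on the absolute deviation of each mouse from the mean of its time point, across all transcripts. The mean deviation of Fosb was 1.07 at 45 min and 0.511 at 0 min, a difference of 0.563 on the log2 scale (SE 0.244, unadjusted p = 0.0295, adjusted p = 0.274). Btg2 differed by 0.188 (SE 0.139, adjusted p = 0.496) and Klf4 by 0.0093 (SE 0.122, adjusted p = 0.981). With 1 mouse left out, the Fosb difference ranged from 0.33 (without mouse 2 at 45 min) to 0.756 (without mouse 6 at 0 min) and that of Btg2 from 0.089 to 0.297, without the same mice. With a replicate block, the Fosb difference was 0.0771 (adjusted p = 0.905 in limma) and that of Btg2 0.0401 (adjusted p = 0.909). The block by its construction shares a deviation among same-numbered mice, so these values do not decide whether the spread differed. None of the 3 genes passed, and no transcript did: 0% of the 8940 were called by limma, although 1426 had an unadjusted p under 0.05 and 70.7% had the larger deviation at 45 min. The deviation at 24 h minus that at 45 min was -0.653 for Fosb (SE 0.244, unadjusted p = 0.0129, adjusted p = 0.209) and -0.309 for Btg2 (SE 0.139, unadjusted p = 0.0347, adjusted p = 0.261). Neither passed after adjustment, and 0.0447% of all transcripts did. Between 24 h and 0 min the deviations of all 3 genes had an adjusted p of 1, with 0.0112% of all transcripts called.

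The same mice stood high and low in Fosb and Btg2 at 45 min. Mouse 7 was the highest and mouse 2 the lowest for both genes, and mice 1, 2 and 4 were the lowest 3 of 8 for both. Relative to the 45 min mean, mouse 7 lay 1.67 higher for Fosb and 1.03 higher for Btg2 on the log2 scale, and the deviation of mouse 2 was -2.30 and -0.89. In Klf4, mouse 7 was again the highest, with a deviation of 0.62, but the lowest was mouse 8 at -0.73, a mouse in the middle of the order for Fosb (0.03) and Btg2 (0.21). The libraries of mice 7 and 8 were among the 3 with the fewest transcripts detected, and the part of this in their deviations was not tested. The Klf4 deviations ran from -0.73 to 0.62. Mice 7, 5, 3 and 6 held places 1 to 4 from the highest in both Fosb and Klf4. The low Fosb mice 4, 2 and 1 followed in Klf4, with deviations of -0.1, -0.28 and -0.4. Mouse 8 held place 5 in Fosb and place 8 in Klf4.

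**Figure D4:**
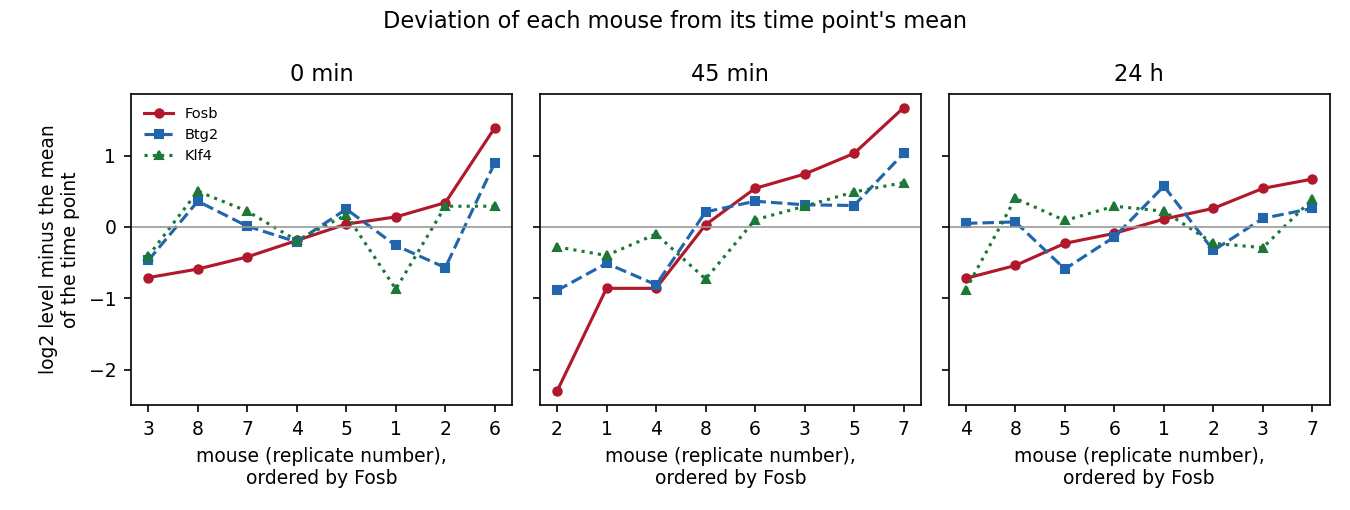
Deviation of each mouse from the mean of its time point in log2(CPM + 0.5) for Fosb, Btg2 and Klf4, with the mice of each time point ordered by Fosb and named by replicate number (numbers do not link mice of different time points). At 45 min the 3 mice lowest in Fosb are also the 3 lowest in Btg2, and mouse 7 is the highest in both. Klf4 shares mice 7, 5, 3 and 6 as its highest with Fosb but has its lowest point, -0.73, at mouse 8.

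At 0 min, mouse 6 was the highest for both Fosb and Btg2, with deviations of 1.39 and 0.90 on the log2 scale. At 24 h mouse 7 was the highest for Fosb and the second highest for Btg2 and Klf4, in which mouse 1 and mouse 8 were the highest. Mouse 4 was the lowest there for both Fosb and Klf4, and mouse 5 for Btg2. The order of mice within a time point is given as a description with no test. At 45 min the low and high sets were seen in the Btg2 levels.

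Transcripts most like each gene across the 24 samples were ranked by Pearson's r of log2(CPM + 0.5) among 8939 others, as a description with no test, since samples of one time point share that time. Fosb was most like Fos (r = 0.917), its AP-1 relative, and then Egr1 (0.882), a zinc finger early gene. They were followed by Nfkbia (0.841), the NF-kB inhibitor, Slc25a33 (0.837) and Trib1 (0.83), a pseudokinase. Btg2 was most like Fos (0.88), Rasd1 (0.824), a RAS-related G protein, Nr4a1 (0.786), an orphan nuclear receptor, Egr1 (0.779) and Rhob (0.752), a small GTPase. Fosb and Btg2 had r = 0.739 with each other, at rank 16 from Fosb and rank 9 from Btg2. Klf4 was most like Hic2 (0.743), Ets2 (0.728) and Rgs4 (0.722). Among transcripts with a symbol, Smad7 (0.705), the inhibitory SMAD, at rank 7 and Jag1 (0.69), a Notch ligand, at rank 10 came next. The r of Klf4 was -0.532 with Fosb and -0.121 with Btg2.

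With the mean of each time point subtracted, so that only differences between mice of one time remained, Fosb was still most like Fos (0.905) and Egr1 (0.782), followed by Dusp1 (0.743), a MAP kinase phosphatase, and Btg2 (0.742). Ptgs2 (0.622), the inducible cyclooxygenase, was the fifth transcript with a symbol. Btg2 was most like Fos (0.855), Dusp1 (0.819), Fosb (0.742), Rasd1 (0.729) and Klf2 (0.725). For Klf4 the named transcripts were S1pr1 (0.682), an endothelial sphingosine 1-phosphate receptor, Mafk (0.634), Herpud2 (0.633), Vwa3a (0.625) and Raver2 (0.614), at ranks 6 to 25. The r of Klf4 was then 0.431 with Fosb and 0.45 with Btg2, so the negative value over time did not remain within time points. These mice also share depth and the number of transcripts detected within a library.

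The 3 genes were set among 39 genes of the early response, all of which passed the filter. The lists hold only genes with a symbol in the study's table of transcripts that changed over time in these samples, so their counts are not independent evidence of a direction. At 45 min against 0 min, 9 of the 39 were called higher and 4 lower, with a median log2 fold change of 0.47, against 0.481% and 0.246% of all transcripts and a median of 0.011. Without mice 6, 7 and 8 at 45 min, the counts were 5 higher and 3 lower. DESeq2 called 14 higher and 6 lower, against 0.634% and 0.272% of the transcripts it tested.

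Of the 10 fast transcription factors, Fosb and Fos rose at 45 min. Fos, the best known AP-1 subunit, had between 9.63 and 59.8 CPM at 0 min and between 11.5 and 201 at 45 min, so the groups overlapped, with a log2 fold change of 2.17 (SE 0.46, adjusted p = 0.0138). It lost its call without mouse 7 at 45 min (1.92, adjusted p = 0.052) and without mice 6, 7 and 8 (1.72, adjusted p = 0.138). Junb, an AP-1 partner (1.26, adjusted p = 0.0618), Egr1 (1.33, adjusted p = 0.23) and Nr4a3 (1.44, adjusted p = 0.0995) did not pass in edgeR, and Nr4a1 had 0.35 (adjusted p = 0.952). DESeq2 called 5 of the 10 higher, with Junb (adjusted p = 0.00846), Nr4a3 (adjusted p = 0.0145) and Cebpd (adjusted p = 0.0266) added, and Ets2 lower (-0.34, adjusted p = 0.00821). By 24 h, 7 of the 10 had fallen from 45 min, among them Egr1 (-2.81 on the log2 scale) and Fos (-2.68), and Ets2 had risen by 0.49. Of all transcripts, 4.51% were called lower and 4.59% higher in that comparison.

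None of the 4 Krüppel-like factors was called at 45 min by edgeR or limma-voom, and Klf4 was the only one called by DESeq2. In edgeR, 3 of the 4 had an unadjusted p under 0.05, all with a lower level at 45 min: Klf2, an endothelial factor responsive to blood flow (-0.89, adjusted p = 0.141), Klf4, and Klf11 (-0.56, adjusted p = 0.798). Klf10, which TGF-beta is known to induce, had 0.12 (adjusted p = 0.956). From 45 min to 24 h, Klf4 and Klf11 (0.87, adjusted p = 0.0287) rose in edgeR, while Klf2 (0.35, adjusted p = 0.416) and Klf10 (0.57, adjusted p = 0.119) were not called. Limma-voom also called Klf10 (0.71, adjusted p = 0.0481). The Klf11 call was kept in 18 of the 24 edgeR fits that left out 1 mouse, with an adjusted p of up to 0.0832.

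Of the 6 BTG and growth arrest genes, 3 were called higher at 45 min by edgeR. They were the stress sensors Gadd45b (2.59, SE 0.36, adjusted p = 0.00013) and Gadd45g (2.18, SE 0.40, adjusted p = 0.00343), and Ddit4, an inhibitor of mTORC1 (1.29, SE 0.27, adjusted p = 0.012). Under the 11 alternatives of processing described below, Gadd45b kept its call in all 11. Gadd45g kept its call in 10 (adjusted p up to 0.115) and Ddit4 in 9 (adjusted p up to 0.122). Btg1, the closest relative of Btg2, had a log2 fold change of -0.09 at 45 min (SE 0.15, adjusted p = 0.952). From 45 min to 24 h, 5 of the 6 fell, Btg2 among them, and Btg1 rose by 0.63 (adjusted p = 0.00789). Btg1 and Btg2 thus had opposite signs after 45 min, each past the test.

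Of the 12 feedback regulators, 4 rose at 45 min, with Socs3, the inhibitor of cytokine receptor signaling, at 3.62 (SE 0.45, adjusted p = 3.08e-05), Tiparp at 1.00, Nfkbia at 0.95 and Trib1 at 0.93. The 3 that fell were Smad7 (-0.96, adjusted p = 0.0138), Plk2 (-0.90, adjusted p = 0.00976) and Dusp6, the ERK phosphatase (-0.73, adjusted p = 0.027). Of the 7 other early response genes, only Id1, an inhibitor of helix-loop-helix factors, was called by edgeR (-0.90, adjusted p = 0.0326). DESeq2 called 2 of the 7 higher and 1 lower, against 0.634% and 0.272% of the transcripts it tested. Ptgs2 was among the higher ones (1.69, adjusted p = 0.00576 in DESeq2), with 1.65 in edgeR (adjusted p = 0.0627). The difference of Klf4 at 45 min (-0.80) was of a size with those of Smad7, Plk2 and Id1, but its adjusted p lay on the other side of the threshold. With 1 mouse left out, Smad7 and Plk2 kept their calls in all 24 fits, Dusp6 in 16 (adjusted p up to 0.0611) and Id1 in 3 (adjusted p up to 0.145). Under the 11 alternatives, Smad7 kept its call in 9 (adjusted p up to 0.0596) and Plk2 in 10 (up to 0.0947). Dusp6 (up to 0.106) and Id1 (up to 0.0949) kept theirs in 8 each. Among the risers, Nfkbia kept its call in 10 (up to 0.0747), and Socs3, Tiparp and Trib1 in all 11.

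**Figure D5:**
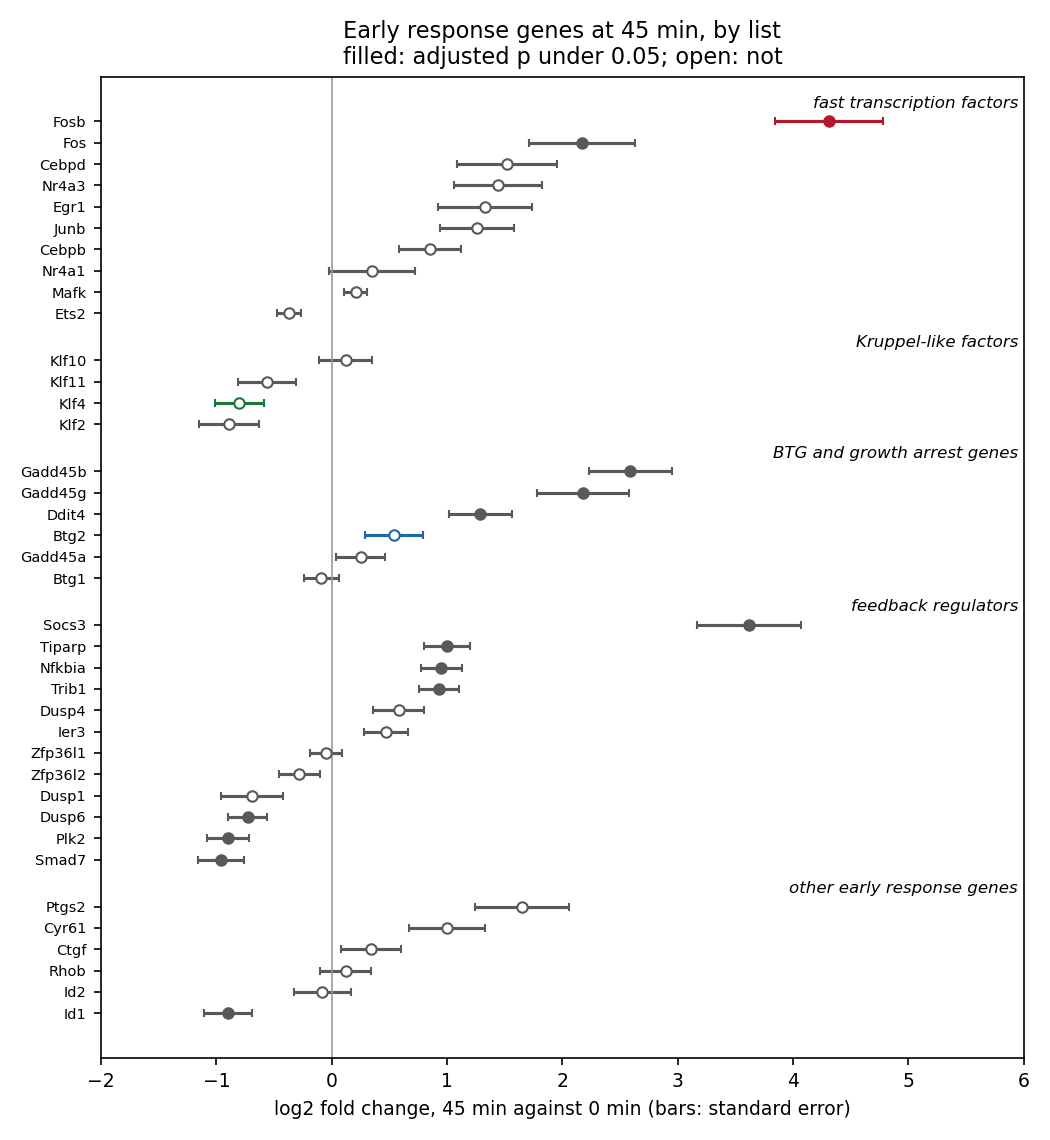
Log2 fold change at 45 min against 0 min (edgeR) of 38 of the 39 early response genes in 5 lists, with bars for the SE and filled points for an adjusted p under 0.05. Fosb (red, 4.31) and Socs3 (3.62) are the highest, Btg2 (blue, 0.54) is open, and Klf4 (green, -0.80) is open between Klf11 and Klf2.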

How the data were processed

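The left ventricle of 24 mice was sequenced as poly(A) RNA. The authors trimmed reads with cutadapt 1.9.1, mapped them to mm10 with TopHat2 2.1.0 and Bowtie2 2.2.9 and counted them with HTSeq 0.6.0, and the deposited values are raw read counts per UCSC transcript, without normalization. The counting mode, strand setting and transcript release are not given in the sources used here. One row without an identifier was left out.

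In R 4.3.3, edgeR 4.0.16 kept 8940 of 63758 transcripts with filterByExpr (minimum count 10, minimum total 15), scaled them by TMM and fitted time as the only factor to all 24 samples by quasi-likelihood. SEs were taken as the absolute log2 fold change over the root of the F statistic. P-values were adjusted by the Benjamini-Hochberg method over all transcripts tested (two-sided, threshold 0.05). Spread was tested with limma 3.58.1 on absolute deviations of log2(TMM CPM + 0.5), multiplied to correct for 8 mice per group. Both tests were checked on simulated data. For the spread test, the simulated difference in SD was larger than that of Fosb. That check therefore does not show whether a difference like that of Fosb would be called. Alternatives used DESeq2 1.42.0, limma-voom, sva 3.50.0, other scalings, filters, a replicate block, and each sample left out. Total counts of 9887957 to 14091629 set the precision, and counting parts cover counting error only.

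Symbols of 1209 transcripts came from the study's table of transcripts changed over time, whose statistics were not used. Named are the 3 genes, genes of the 5 early lists, and the 5 transcripts with a symbol most like each gene. The members and lists were chosen with earlier results of these data known, and leaving out mice 6, 7 and 8 at 45 min was chosen after seeing the data. Surgeon and library pool were not assigned to samples and not used here. Promoters came from the RefSeq table of GRCm38.p6, where all 3 genes matched by symbol. One gene of the early lists is counted but not reported here by itself.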

Additional observations from a re-analysis of the deposited data

How the results depend on the processing

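For the levels at 45 min against 0 min, Fosb (3.88 to 4.36 on the log2 scale) and Btg2 (0.17 to 0.58) kept direction and side of the threshold in all 11 alternatives, and Klf4 (-0.84 to -0.76) did in 9. Klf4 passed with DESeq2 (-0.78) and with 1 surrogate variable (-0.76). The count of 65 transcripts called there was 100 with DESeq2, 103 with a covariate for the number of transcripts detected and 138 with the surrogate variable. At 24 h against 0 min no call on the 3 genes changed, and the count of 687 was 1062 with the covariate, 1791 with the surrogate variable and 1064 without mice 6, 7 and 8 at 45 min. At 24 h against 45 min, Btg2 lost its call with the covariate (-0.61) and without mice 6, 7 and 8 (-0.56), and the count of 813 was 1556 with the surrogate variable. Over time, the adjusted p of Btg2 was 0.079 with limma-voom, 0.0504 with no filter, 0.0724 with the replicate block, 0.147 with the covariate and 0.262 without mice 6, 7 and 8, and the count of 797 was 1203 with DESeq2 and 1951 with the surrogate variable. The cause of these moves was not tested.

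For the spread, the count called at 45 min against 0 min, 0, was 2 with a pseudocount of 0.1, 1 with the stricter filter and 1185 with no filter. At 24 h against 0 min, 1, it was 0 with RLE scaling, deviations from the median, the variance-stabilizing transformation, the block and without mice 6, 7 and 8, and 1192 with no filter. At 24 h against 45 min, 4, it was 0 in those same 5 alternatives, 7 with the pseudocount of 0.1, 2 with the stricter filter and 1318 with no filter. Signs turned for differences that had not passed: Klf4 at 45 min against 0 min with RLE (-0.00061), the stricter filter (-0.0128) and without mice 6, 7 and 8 (-0.0509), Klf4 at 24 h against 45 min in the last 2 (0.0056 and 0.00958), and Klf4 at 24 h against 0 min with the median (0.00258). The block, which by its construction shares a deviation among same-numbered mice, took the differences at 45 min against 0 min to 0.0771 for Fosb and 0.0401 for Btg2, and that of Fosb at 24 h against 45 min to -0.304. With it Btg2 turned at 24 h against 0 min (0.083) and against 45 min (0.0429).

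Leaving out each sample in turn gave 47 to 75 calls at 45 min against 0 min, 513 to 938 at 24 h against 0 min, 524 to 1668 at 24 h against 45 min and 585 to 1291 over time. The count was 524 without replicate 2 and 1668 without replicate 4 at 24 h. Klf4 ranged from -0.91 to -0.72 at 45 min, Btg2 from -1.09 to -0.75 at 24 h against 45 min, and its adjusted p over time from 0.0149 to 0.13. Spread calls ranged from 0 to 13 at 45 min against 0 min, from 0 to 2 at 24 h against 0 min and from 0 to 1152 at 24 h against 45 min, where 1152 were called without replicate 4 at 24 h. At 45 min against 0 min the spread difference ranged from 0.33 to 0.756 for Fosb and from 0.089 to 0.297 for Btg2. That of Klf4 ranged from -0.0496 to 0.141 at 45 min, from -0.151 to 0.0924 at 24 h against 0 min and from -0.157 to 0.00568 at 24 h against 45 min, and that of Fosb from -0.173 to 0.06 at 24 h against 0 min.

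The labels give each time point replicates 1 to 8 but not that a number marks a shared day or litter. For that reason the numbers were not read as pairs. The deviations of same-numbered samples correlated from -0.541 to 0.583, over 0.1 in 13 of 24 pairs. Samples of different numbers were not correlated for comparison, so these values cannot decide whether a number marks a shared day or litter. The block changed no call on the levels of the 3 genes other than that of Btg2 over time. For the other early genes named, 499 of 558 values under the alternatives and 1041 of 1224 with a sample left out kept direction and side of the threshold, and 0 turned sign.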

Other observations

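Among the early response genes, several stood apart from 0 min at 24 h, where none of Fosb, Btg2 and Klf4 did. Of the 39, 9 were higher and 4 lower at 24 h, against 4.44% and 3.24% of all transcripts. The higher ones included Socs3 (log2 fold change 2.34, SE 0.43, adjusted p = 0.000598 in edgeR) and Ptgs2 (1.78, SE 0.41, adjusted p = 0.00584). Of the 9, Socs3 had also been called higher at 45 min by edgeR. Ptgs2 had missed the edgeR threshold there (adjusted p = 0.0627) but was called by DESeq2 (adjusted p = 0.00576). Its rise in edgeR was already 1.65 by then, and the step from 45 min to 24 h was 0.13 (adjusted p = 0.862). The 4 lower ones were Egr1 (-1.48, adjusted p = 0.0265), Nr4a1 (-1.29, adjusted p = 0.0299), Gadd45a (-1.02, adjusted p = 0.0027) and Rhob (-0.76, adjusted p = 0.0321), none of which had been called at 45 min. With 1 mouse left out, the Gadd45a call was kept in all 24 fits, those of Egr1 and Nr4a1 in 19 each (adjusted p up to 0.111 and 0.0876) and that of Rhob in 11 (adjusted p up to 0.0988). The Rhob value was -0.42 with a covariate for the number of transcripts detected. These genes were chosen on these samples and the comparison shares the 0 min samples, so the counts are a description.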
